A study of Mus musculus with 96 samples.

Results

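The cerebellum of aged mice given plasma from young mice was compared with that of mice given PBS, the saline vehicle, in 9 of the 96 libraries of the series. The 9 libraries were the cerebellum samples labelled as 18 months old, experiment 1, with 7 daily injections. The plasma group held 5 mice (numbered 1, 4, 7, 10 and 13 in the labels) and the PBS group 4 mice (2, 5, 8 and 11). All were male C57BL/6J mice, with 1 library of bulk mRNA per mouse. Sets used beside them were cerebellum libraries of plasma and PBS mice of 22 months (7 injections, 3 mice each), of plasma (3 mice) and PBS (4 mice) mice of 19 months after 24 injections, of naive mice, which had no injections, at 18 months (3 mice) and at 2 months (4 mice), and the cortex and hippocampus of the same 9 mice. The age of the young naive mice is 2 months in their labels and 3 months in the design text. The labels do not give the age or number of the plasma donors, the dose or the route of injection.

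The cerebellum is made up mainly of granule neurons, which receive input from the brainstem and send parallel fibres to the Purkinje neurons, the only output cells of its cortex. Bergmann glia, oligodendrocytes, microglia and blood vessels lie among them, and the choroid plexus of the fourth ventricle and the brainstem lie directly beneath. Ageing of the mouse brain is known for higher levels of complement, interferon response and antigen presentation genes in glia. Infusion of young plasma is studied because exchange of blood between young and old mice has been linked to changes in the aged brain. The comparison asks which cerebellar transcripts differ after 7 daily plasma injections.

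The total count per library was 6527946, 7068073, 3479637, 3896628 and 11014694 in plasma mice 1, 4, 7, 10 and 13, against 1029695, 6886098, 5562711 and 10318602 in PBS mice 2, 5, 8 and 11. The library of PBS mouse 2 was the shallowest, and its median rank correlation with the other 8 libraries was 0.979, against up to 0.991 for the others. Among plasma mice, numbers 4, 7 and 13 were the highest in the summed level of brainstem neuron genes, as described below. The tissue label was checked against its markers: all 18 granule neuron genes and all 18 Purkinje neuron genes on the lists were measured, with Gabra6, a granule neuron receptor subunit, at 375 to 405 CPM (counts per 1000000 counts of a library) in plasma mice and 399.8 to 451 CPM in PBS mice. Titles carry a second number whose meaning the labels do not give; plasma mice 10 and 13 share it with PBS mouse 11, and it differs between the other plasma mice and the other PBS mice.

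No gene passed the test. Of 17185 genes tested with edgeR's quasi-likelihood test, 0 (0%) had a Benjamini-Hochberg adjusted p under 0.05, and the smallest adjusted p was 1.00. At an unadjusted p under 0.05 there were 696 genes (4.05%), of which 384 (2.23%) were higher and 312 (1.82%) lower in plasma mice. DESeq2 also called 0 genes, with 451 at an unadjusted p under 0.05, and limma-voom 0, with 878. The CPM of the plasma and PBS libraries did not overlap for 227 genes (1.32%), of which 105 were higher and 122 lower in plasma mice. Whatever the p, 49.4% of genes were higher in plasma mice, and the median log2 change over all genes was -0.00.

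The size of change that these libraries could show depended on the level of the gene. Among 13035 genes with a mean of at least 5 CPM, the median standard error of the log2 change was 0.0954, and the 95% interval lay wholly within 1 log2 unit of 0 for 12929 of them (99.2%). Among 4150 genes under 5 CPM, the median standard error was 0.310 and the share was 66.5%. Differences of low genes were thus often not detectable at this depth, whereas for most genes at 5 CPM or more a change of 1 log2 unit in either direction lay outside the interval.

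**Figure D1:**
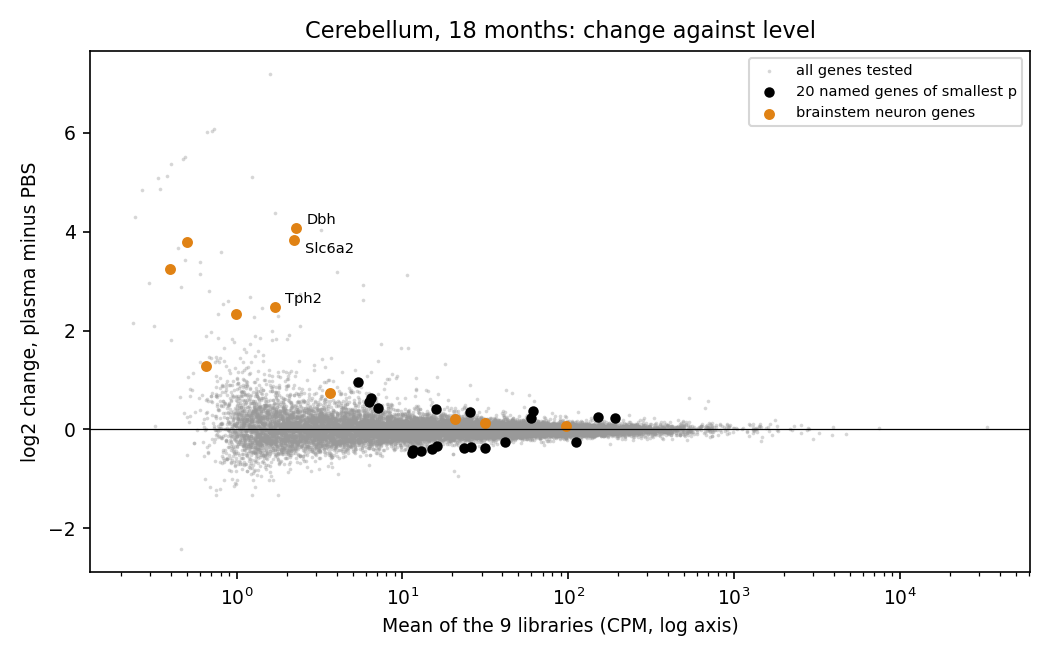
Log2 change (plasma minus PBS, y axis) of each of 17185 genes against its mean over the 9 libraries (CPM, log x axis). The cloud narrows as the level rises; black points are the 20 named genes of smallest p, and orange points are the brainstem neuron genes, of which Dbh, Slc6a2 and Tph2 lie at 2.48 to 4.08 with means under 5 CPM.

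With no gene past the threshold, the 10 genes of smallest p in each direction with a mean of at least 5 CPM are described, and none of them passed the test. This choice by p favours genes whose groups do not overlap, so a lack of overlap among them is no further evidence of a difference. Higher in plasma mice were Serpine2, Pld3, Oscp1, Agpat1, Irx3, Tshz2, Plcd1, Wdr35, Mtch1 and Nynrin, with log2 changes of 0.23 to 0.96 and unadjusted p of 0.00216 to 0.00543. Serpine2 (chromosome 1, 79794317 to 79858665, GRCm38) encodes protease nexin 1, a secreted inhibitor of thrombin and other serine proteases. It had 167, 169, 181, 148 and 154 CPM in plasma mice 1, 4, 7, 10 and 13, against 125, 147, 128 and 143 CPM in PBS mice 2, 5, 8 and 11. The lowest plasma library lay just above the highest PBS library, and the log2 difference was 0.25 ± 0.08 (SE; unadjusted p = 0.00258, adjusted p = 1.00 by edgeR). Pld3 (chromosome 7, 27531367 to 27553229) encodes a lysosomal member of the phospholipase D family and had 57.8, 74.6, 76.7, 69.8 and 66.2 CPM in plasma mice, against 48.6, 53.6, 52.1 and 53.7 CPM in PBS mice. The groups did not overlap, and the log2 difference was 0.38 ± 0.12 (SE).

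Agpat1, an acyltransferase of phospholipid synthesis, had 61.6, 60.4, 69.3, 65.4 and 61.6 CPM in plasma mice, against 54.4, 55.8, 57.7 and 48.6 CPM in PBS mice, again without overlap. Irx3, an Iroquois homeobox transcription factor, averaged 7.26 ± 0.87 CPM in plasma mice and 5.02 ± 0.87 CPM in PBS mice (SD, n = 5 and 4). Wdr35, a component of intraflagellar transport in cilia, had a log2 difference of 0.35 ± 0.12 (SE), and Plcd1, a phospholipase C, one of 0.44 ± 0.14. Tshz2, a zinc finger transcription factor, had the largest difference of the 10, 0.96 ± 0.31 (SE). Its libraries overlapped, with 5.67, 8.77, 7.76, 4.11 and 5.90 CPM in plasma mice against 6.80, 3.19, 3.60 and 2.71 CPM in PBS mice. Libraries also overlapped for Mtch1, a mitochondrial outer membrane protein, and Nynrin.

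Lower in plasma mice were Zfp101, Zkscan8, Abraxas1, Zfp758, Zbtb21, Clp1, Haus3, Wdhd1, Abcc12 and Car4, with log2 changes of -0.47 to -0.25 and unadjusted p of 0.000328 to 0.00422. Zfp101 (chromosome 17, 33380174 to 33394637), which encodes a zinc finger protein, had 23.9, 21.5, 19.3, 17.2 and 20.1 CPM in plasma mice, against 29.1, 27.6, 24.8 and 27.4 CPM in PBS mice. The groups did not overlap, and the log2 difference was -0.38 ± 0.10 (SE; unadjusted p = 0.000328, adjusted p = 1.00 by edgeR). Zkscan8, another zinc finger gene, had 29.4, 26.2, 30.8, 24.1 and 28.1 CPM in plasma mice, against 37.9, 36.5, 33.1 and 37.9 CPM in PBS mice. Zfp758 lay at 8.05 to 13.5 CPM in plasma mice and at 14.9 to 15.5 CPM in PBS mice. In these 3 genes every plasma library was below every PBS library.

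Car4 (chromosome 11, 84957754 to 84966054) encodes a membrane-bound carbonic anhydrase found on brain capillaries. It had 104, 98.3, 102, 102 and 102 CPM in plasma mice, against 134, 129, 111 and 117 CPM in PBS mice, so that the plasma libraries lay close together below the more spread PBS libraries. Abraxas1, a scaffold of a BRCA1 complex, averaged 9.58 ± 1.30 CPM in plasma mice and 13.9 ± 1.98 CPM in PBS mice (SD, n = 5 and 4). Clp1, an RNA kinase of tRNA splicing and mRNA 3' end formation, had a log2 difference of -0.41 ± 0.12 (SE), and Wdhd1, a replication fork protein, one of -0.33 ± 0.11. Haus3, a subunit of the augmin complex of the spindle, was the exception to the lack of overlap in this direction, with 20.0 to 25.3 CPM in plasma mice and 22.0 to 36.9 CPM in PBS mice. The lower genes included several with zinc finger names, so all such symbols were counted after these values were seen: of 364 with at least 5 CPM, 225 (61.8%) were lower in plasma mice, against 51.5% of all 13035 genes at that level. Their median log2 change was -0.03. At an unadjusted p under 0.05, 15 (4.12%) were lower and 5 (1.37%) higher, against 247 (1.89%) lower and 237 (1.82%) higher of the 13035 genes. Zfp101, Zkscan8, Zfp758 and Zbtb21, which prompted the count, are among the 15.

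**Figure D2:**
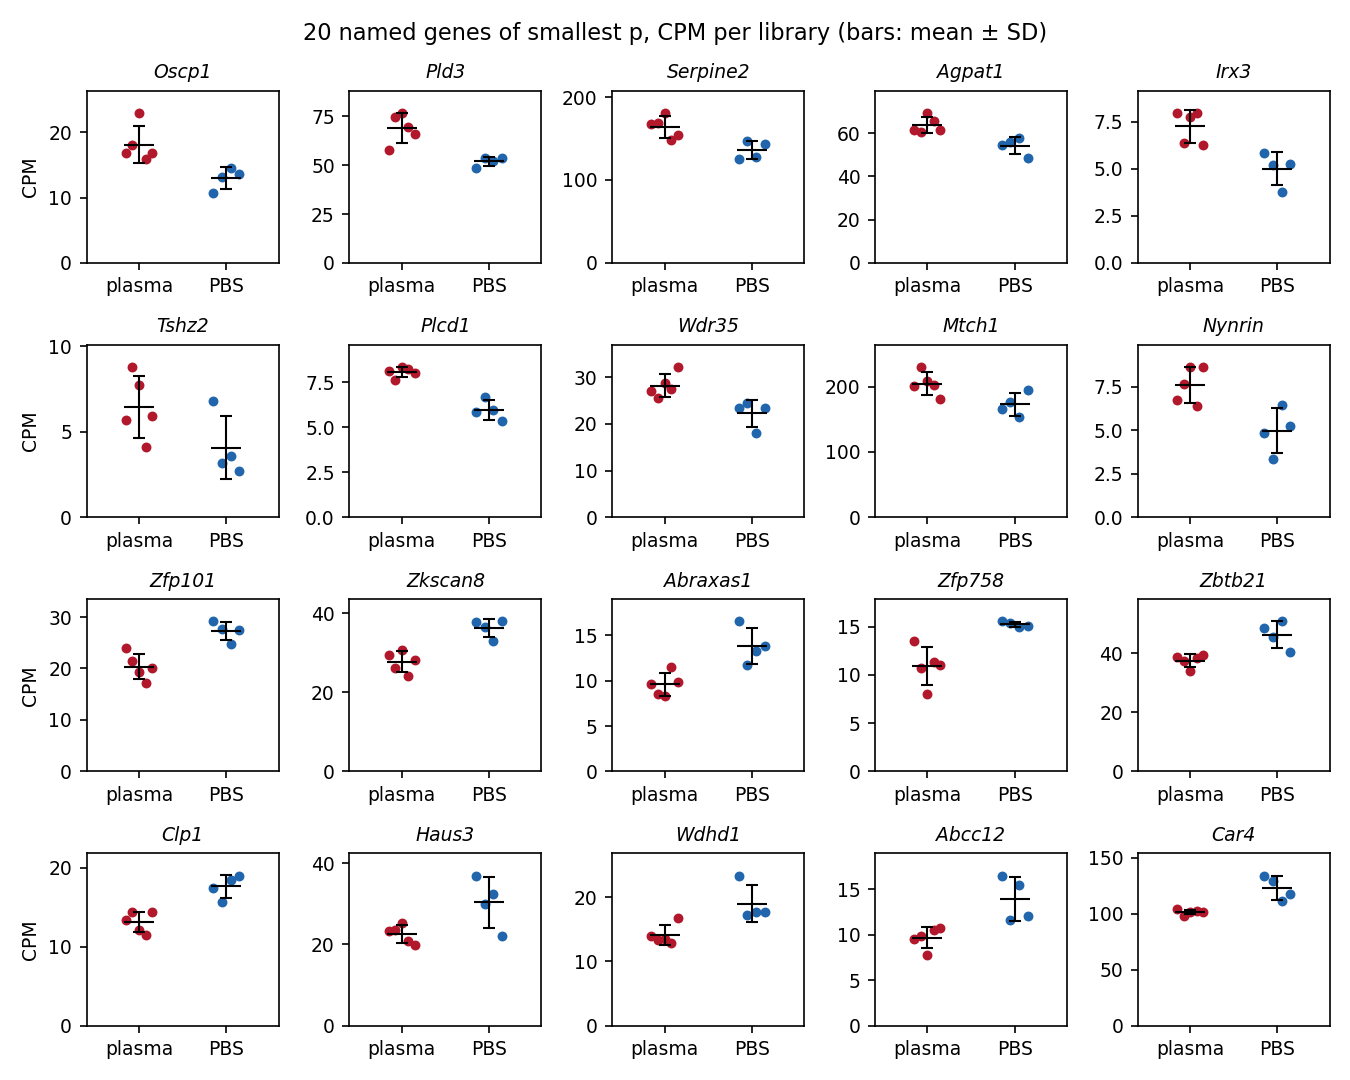
CPM per library of the 20 named genes in 5 plasma mice (red, left) and 4 PBS mice (blue, right), with the mean and SD as bars and each y axis starting at 0. The groups overlap in Tshz2, Mtch1, Nynrin and Haus3 and do not overlap in the other 16 genes. The 20 genes were chosen by their p in this comparison, which favours genes without overlap. Over all 17185 genes tested, 227 (1.32%) did not overlap.

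The direction of these 20 genes was then compared with that in other sets of mice, where none of them passed the test for plasma against PBS. The sign was the same for 8 of 20 at 22 months and for 13 of 20 after 24 injections, of which 2 had an unadjusted p under 0.05. In the cortex of the same mice it was the same for 12, and in the hippocampus for 10. Tshz2 had a log2 difference of 0.86 after 24 injections but 0.02 at 22 months, and Serpine2 had 0.15 and -0.09.

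Of the cerebellar neuron lists, all 18 granule neuron genes were lower in plasma mice and 0 passed the test, with a median log2 change of -0.11. For comparison, 50.6% of all genes were lower and their median was -0.00. In bulk tissue, fewer cells of a type and less RNA per cell cannot be told apart. Fat2, a protocadherin of granule neurons and the only member of the list at an unadjusted p under 0.05, had 331, 244, 251, 283 and 278 CPM in plasma mice, against 346, 317, 333 and 289 CPM in PBS mice (log2 difference -0.20 ± 0.08). Plasma mice 4 and 7 were the lowest, and plasma mouse 1 lay within the PBS range. Cbln3, a cerebellin secreted by granule neurons, Neurod1, a neurogenic transcription factor, and Etv1, an activity-regulated transcription factor, were the most abundant members, with log2 differences of -0.09, -0.09 and -0.12. Gabra6 had -0.09 ± 0.06 (SE). The summed level of the list was 4745 to 5544 CPM in plasma mice and 5318 to 5721 CPM in PBS mice.

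Of 18 Purkinje neuron genes, 3 were higher and 15 lower in plasma mice, with a median of -0.05. Pcp2, a marker restricted to Purkinje neurons and retinal bipolar cells, had 274 to 373 CPM in plasma mice and 279 to 376 CPM in PBS mice. Car8, which binds the inositol trisphosphate receptor, and Itpr1, which encodes that receptor, had log2 differences of -0.01 and -0.07, both smaller than their standard errors. Interneuron and unipolar brush cell genes were split at 7 higher and 6 lower. Eomes, which marks unipolar brush cells, had 11.1 to 26.4 CPM in plasma mice and 13.1 to 33.6 CPM in PBS mice, with an unadjusted p of 0.0226 in edgeR. Of 31 synaptic genes, 14 were higher and 17 lower, with a median of -0.02. Pclo, the active zone scaffold piccolo, had 425 to 558 CPM in plasma mice and 484 to 682 CPM in PBS mice (log2 difference -0.22 ± 0.08, unadjusted p = 0.0109 by edgeR).

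Genes of neurons outside the cerebellum differed among the plasma libraries themselves. Of 16 brainstem neuron genes on the list, 11 passed the filter on low counts and all 11 were higher in plasma mice, with a median log2 change of 2.33, but 0 passed the test. Genes of this list could pass the filter through the plasma libraries where they are high, so this count describes those libraries. Dbh, the enzyme that makes noradrenaline, had 0, 8.35, 2.87, 1.28 and 7.35 CPM in plasma mice 1, 4, 7, 10 and 13, against 0, 0, 0 and 0.581 CPM in PBS mice. Slc6a2, the noradrenaline transporter, followed it with 0, 7.78, 2.30, 2.05 and 7.17 CPM in plasma mice, against 0, 0, 0 and 0.678 CPM in PBS mice. Both were near or at 0 in plasma mouse 1 and in all PBS mice, and their log2 differences were 4.08 ± 1.40 and 3.83 ± 1.29 (SE; unadjusted p = 0.00656 and 0.00568, adjusted p = 1.00 by edgeR). Noradrenergic cell bodies lie in the locus coeruleus of the brainstem, beneath the cerebellum.

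Tph2, the serotonin-producing enzyme of the raphe nuclei, had 1.23, 6.23, 4.31, 0.77 and 1.18 CPM in plasma mice, against 0, 0.581, 0.539 and 0.388 CPM in PBS mice. Slc17a6, the vesicular glutamate transporter of thalamic, brainstem and deep cerebellar neurons, had 8.88, 58.9, 58.3, 14.4 and 21.2 CPM in plasma mice, against 18.5, 15.4, 14.9 and 19.0 CPM in PBS mice. Tcf7l2, a transcription factor of thalamic neurons and of oligodendrocyte lineage cells, had 28.6, 86.2, 88.5, 32.1 and 26.0 CPM in plasma mice, against 34.0, 28.5, 27.9 and 29.4 CPM in PBS mice. For Slc17a6 and Tcf7l2 plasma mice 4 and 7 were the only libraries above the rest, and the other 3 plasma mice lay near the PBS mice. The neuropeptide gene Sst followed the same libraries, with 0.919, 19.2, 16.1, 3.85 and 3.36 CPM in plasma mice and 4.86, 1.02, 1.26 and 1.16 CPM in PBS mice. Dbh, Slc6a2, Tph2, Slc17a6, Tcf7l2 and Sst were chosen for description after their values were seen.

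The summed level of the 16 brainstem neuron genes was 134, 205, 183, 155 and 189 CPM in plasma mice, against 142, 141, 140 and 163 CPM in PBS mice. Hoxb3, Hoxc4 and Hoxd3 were at 0 in all 9 libraries. Most of the sum came from Nefh, Th and Slc6a5, which were present in every library, so it says little about low members such as Dbh. Nefh had 79.2 to 119 CPM in plasma mice and 90.4 to 98.1 CPM in PBS mice. Th was highest in plasma mouse 13 (50.4 CPM) and, among PBS mice, in mouse 11 (38.1 CPM). Of the 21 forebrain neuron genes, which include Slc17a6 and Tcf7l2, 15 passed the filter and 10 of these were higher. Their summed level was 890 and 878 CPM in plasma mice 4 and 7. It was 768 to 829 CPM in the other plasma mice and 781 to 800 CPM in PBS mice. The part of these levels in any other difference was not tested. With plasma mice 4 and 7 left out, a choice made after seeing the data, 0 genes were called and 570 had an unadjusted p under 0.05. The brainstem median was then 0.37, with 9 genes higher and 2 lower, and 14 of 18 granule neuron genes were lower, with a median of -0.06. The Purkinje median was 0.02, with 11 of 18 genes higher. Plasma mouse 13, high in Dbh and Slc6a2, stayed in that setting. With plasma mice 4, 7 and 13 left out, likewise chosen after seeing the data, 0 genes were called and 589 had an unadjusted p under 0.05. The brainstem median was then 0.38, with 7 genes higher and 4 lower. In both settings the mice were left out for their levels of such genes. The lower brainstem medians thus follow from the choice and are no result. The granule neuron median was -0.03, with 12 of 18 genes lower, and the Purkinje median -0.01.

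**Figure D3:**
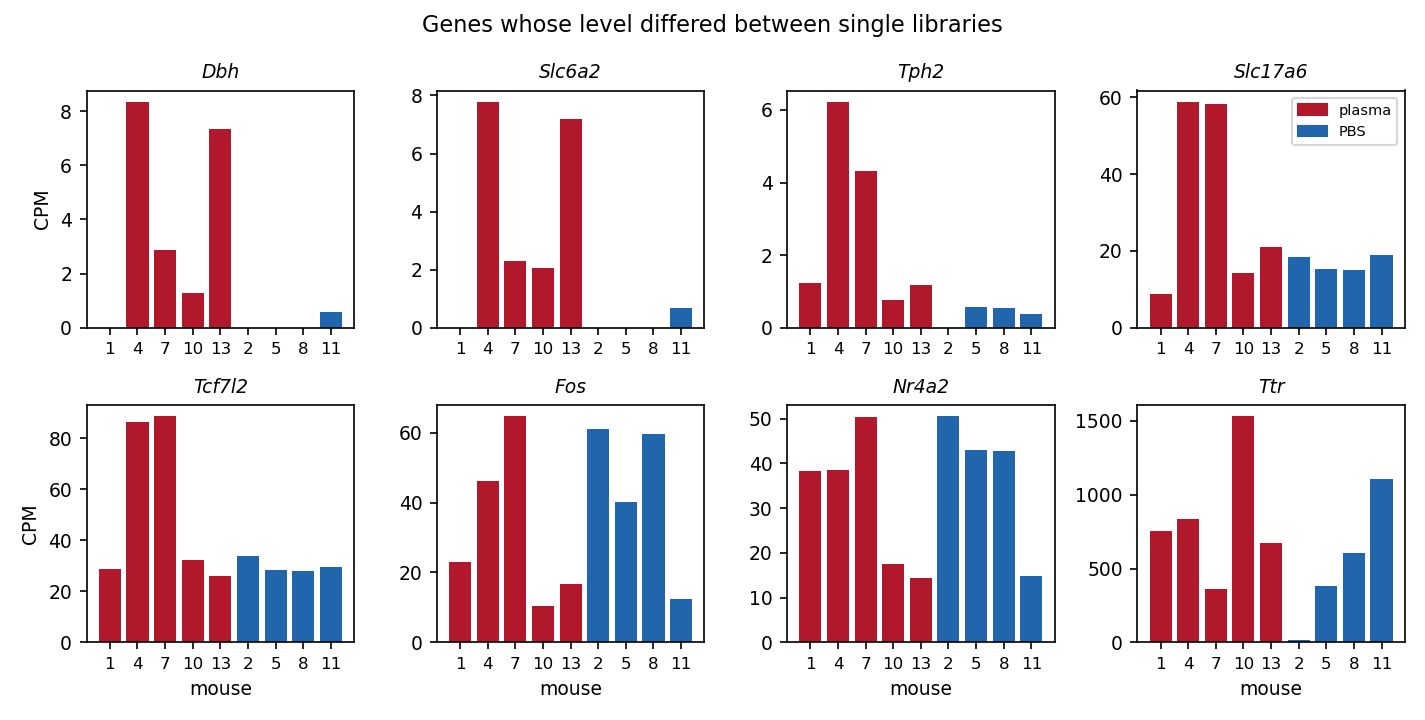
CPM of 8 genes in each library, plasma mice (red) left of PBS mice (blue), with the mouse number under each bar. Dbh and Slc6a2 are high in plasma mice 4 and 13, Slc17a6 and Tcf7l2 in plasma mice 4 and 7, Fos and Nr4a2 are low in mice 10, 13 and 11, and Ttr spans 18.5 to 1531 CPM.

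Immune and glial lists held no gene past the threshold. Of 20 activated microglia genes, 18 were higher and 2 lower in plasma mice, with a median log2 change of 0.21. Ctsd, a lysosomal protease, had 401, 378, 350.3, 392 and 375 CPM in plasma mice, against 299, 341, 326 and 384 CPM in PBS mice (log2 difference 0.16 ± 0.07). Gpnmb, a glycoprotein of lipid-loaded phagocytes, had 8.27, 4.67, 2.59, 5.90 and 4.81 CPM in plasma mice, against 1.94, 3.78, 2.88 and 3.39 CPM in PBS mice. Both overlapped between the groups, and plasma mouse 1 was the highest library for each. Apoe and Ctsb, the most abundant members, had log2 differences of -0.00 and 0.08. With 1 library left out the median was 0.07 to 0.28. Without plasma mice 4 and 7 it was 0.20, without plasma mice 4, 7 and 13 0.43, and without the 3 mice of the shared title number 0.26. Among only those 3 mice it was 0.00, with 10 genes higher and 10 lower. That last setting compares plasma mice 10 and 13 with PBS mouse 11 alone, so its values rest on a single PBS library.

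Of 14 homeostatic microglia genes, 11 were higher in plasma mice, with a median of 0.15. Cx3cr1, the fractalkine receptor, had 19.4 to 26.3 CPM in plasma mice and 17.1 to 22.4 CPM in PBS mice. The ligand of that receptor, Cx3cl1, which neurons make, had 70.5, 99.2, 101, 84.4 and 83.8 CPM in plasma mice, against 69.9, 71.7, 62.2 and 72.4 CPM in PBS mice (log2 difference 0.34 ± 0.14, unadjusted p = 0.0178 by edgeR). Plasma mouse 1 lay within the PBS range and plasma mice 4 and 7 were the highest. Among 11 cytokine and chemokine genes tested, 9 were higher, and Tnf and Il6 were at 0 in all 9 libraries.

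Of 12 complement genes, 9 were higher and 3 lower in plasma mice, with a median of 0.09. The complement median was -0.01 without plasma mouse 1, and up to 0.17 with another library left out. Plasma mouse 1 had the highest summed level of the list, 259.5 CPM, against 202 to 226 CPM in the other plasma mice and 205 to 234 CPM in PBS mice. C4b (chromosome 17, 34728139 to 34743902), a complement component that is a common mark of brain ageing, had 49.3, 42.6, 47.1, 43.4 and 45.3 CPM in plasma mice, against 38.8, 39.6, 37.2 and 40.5 CPM in PBS mice. The groups did not overlap, but the log2 difference of 0.22 ± 0.11 (95% interval -0.01 to 0.45) had an unadjusted p of 0.0602 in edgeR. C3 was at 14.6 CPM in plasma mouse 1 and between 1.72 and 3.25 CPM in the other plasma mice, against 0.971 to 3.59 CPM in PBS mice. Of 16 antigen presentation genes, 14 were higher and 2 lower, with a median of 0.20, and B2m, the light chain of class I molecules, had a log2 difference of 0.06 ± 0.09. Of 31 interferon response genes, 21 were higher and 10 lower, with a median of 0.05. That median was -0.01 without plasma mouse 10 and -0.02 without PBS mouse 11, and up to 0.18 with another library left out.

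Among reactive astrocyte genes 11 were higher and 5 lower, and Gfap, the astrocyte intermediate filament, had 231 to 312 CPM in plasma mice and 241 to 279 CPM in PBS mice (log2 difference 0.07 ± 0.09). Bergmann glia and astrocyte genes were split at 9 higher and 8 lower, with a median of 0.00. Of 18 myelin genes 13 were higher, with a median of 0.03, and Mbp, a main myelin protein, had a log2 difference of 0.02. Among 15 genes of oligodendrocyte precursors and committed cells 12 were higher. Olig1, a transcription factor of the lineage, had 55.1, 73.0, 66.7, 53.9 and 59.6 CPM in plasma mice, against 58.3, 44.9, 50.7 and 54.7 CPM in PBS mice. Gpr17, a receptor of committed precursors, had 3.85 to 8.05 CPM in plasma mice and 6.11 to 9.71 CPM in PBS mice.

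**Figure D4:**
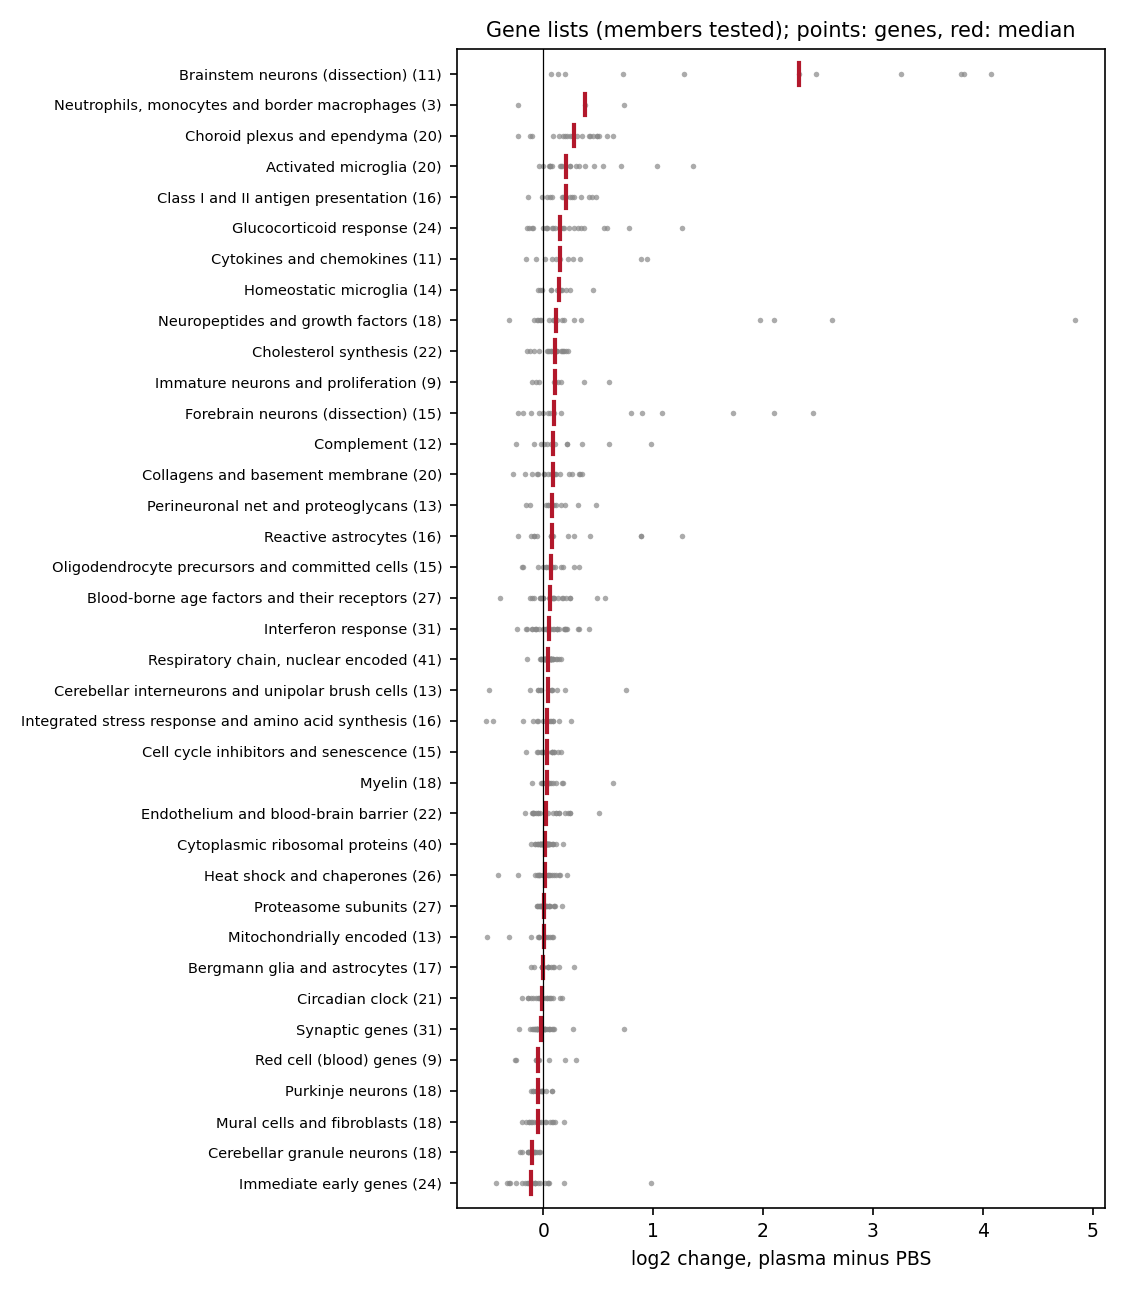
Log2 change (plasma minus PBS, x axis) of each tested member (grey points) of 37 gene lists, sorted by the median of the list (red line), with the number of members tested in brackets. Medians of 32 lists lie within 0.2 of 0, and the brainstem neuron list, at 2.33, stands apart.

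Immediate early genes, which neurons induce within minutes of activity, were lower in plasma mice for 18 of 24 members, with a median of -0.11. Fos had 23.0, 46.1, 64.7, 10.3 and 16.7 CPM in plasma mice, against 61.2, 40.1, 59.7 and 12.3 CPM in PBS mice (log2 difference -0.30 ± 0.40). The low libraries of both groups were mice 10, 13 and 11, which share a title number. Nr4a2, an inducible nuclear receptor chosen after its values were seen, had 38.3, 38.5, 50.3, 17.5 and 14.4 CPM in plasma mice, against 50.5, 43.0, 42.8 and 14.7 CPM in PBS mice, with the same 3 mice low. The summed level of the list was 583 and 601 CPM in plasma mice 10 and 13 and 607 CPM in PBS mouse 11, and 651 to 876 CPM in the other plasma mice and 821 to 865 CPM in the other PBS mice. Without these 3 mice the median was -0.08, and among them alone it was 0.11. It was 0.03 without PBS mouse 8, and without plasma mice 4 and 7 it was -0.27, with 21 of 24 genes lower. Ier2 had the only unadjusted p under 0.05 of the list, with 21.0 to 30.8 CPM in plasma mice and 28.2 to 31.4 CPM in PBS mice.

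Of 24 glucocorticoid response genes 19 were higher in plasma mice, with a median of 0.15 and 0 past the threshold. Their summed level was 1742 CPM in plasma mouse 1 and 1376 to 1478 CPM in the other plasma mice, against 1330 to 1408 CPM in PBS mice. Zbtb16, a transcription factor induced by the hormone, had 21.3, 16.7, 24.4, 10.5 and 15.0 CPM in plasma mice, against 11.7, 10.3, 15.5 and 10.7 CPM in PBS mice. Plasma mice 1, 4 and 7 lay above all PBS mice, and plasma mice 10 and 13 among them. Fkbp5, the feedback regulator of the receptor, had 7.51 to 14.9 CPM in plasma mice and 8.28 to 10.1 CPM in PBS mice, and Klf9 a log2 difference of -0.00. Circadian clock genes were 9 higher and 12 lower. Arntl, which encodes the clock activator BMAL1, had 53.9, 56.6, 56.3, 59.0 and 56.8 CPM in plasma mice, against 64.1, 67.1, 61.5 and 65.0 CPM in PBS mice, without overlap (log2 difference -0.19 ± 0.07, unadjusted p = 0.0127 by edgeR).

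Genes of respiration and protein turnover differed little. Of 41 nuclear genes of the respiratory chain 35 were higher in plasma mice, but with a median of 0.05, and Atp5b, a subunit of ATP synthase, had a log2 difference of 0.01 ± 0.05. Their median was turned to a negative value by leaving out PBS mouse 5 and among only the 3 mice of the shared title number, where PBS mouse 11 is the only PBS library. Cytoplasmic ribosomal protein genes were 23 higher and 17 lower, with a median of 0.02. Without the 3 mice of the shared title number 36 of the 40 were higher, with a median of 0.14. Among only those 3 mice 38 were lower, with a median of -0.18. The latter values rest on PBS mouse 11 as the only PBS library. They also rest on plasma mouse 13, the lowest plasma library in the summed level of the list (5038 CPM). Proteasome genes were 15 higher and 12 lower, with a median of 0.01. Of 22 cholesterol synthesis genes 18 were higher, with a median of 0.10. Fdft1, squalene synthase, had 49.5, 66.1, 69.3, 63.6 and 60.8 CPM in plasma mice, against 58.3, 48.6, 53.8 and 53.6 CPM in PBS mice, with plasma mouse 1 inside the PBS range. Heat shock genes were 16 higher and 10 lower, with Hspa8, the constitutive Hsc70 chaperone, at 0.04 ± 0.09.

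Vessel genes were evenly spread. Endothelial and barrier genes were 12 higher and 10 lower in plasma mice, and mural cell and fibroblast genes 7 higher and 11 lower. Mfsd2a, the lipid transporter of the blood-brain barrier, had 6.43 to 10.3 CPM in plasma mice and 1.94 to 7.55 CPM in PBS mice. Slc2a1, the glucose transporter of the barrier, had a log2 difference of 0.14 ± 0.08. Of 20 genes of collagens and basement membrane 15 were higher, with a median of 0.09. Without the 3 mice of the shared title number 6 were higher and 14 lower, with a median of -0.11. Among only those 3 mice, with PBS mouse 11 as the only PBS library, 16 were higher, with a median of 0.35.

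Choroid plexus genes varied widely between mice of 1 group. Of 20 genes 17 were higher in plasma mice, with a median of 0.28 (0.13 to 0.62 with 1 library left out) and 0 past the threshold. Ttr, the thyroxine carrier that the choroid plexus secretes, had 751, 836, 362, 1531 and 676 CPM in plasma mice, against 18.5, 381, 607 and 1107 CPM in PBS mice. The log2 difference of 0.58 had an SE of 0.95, and its 95% interval ran from -1.35 to 2.51. The summed level of the list was 849 to 3024 CPM in plasma mice and 210 to 2117 CPM in PBS mice, lowest in the shallow library of PBS mouse 2. The red cell genes likewise overlapped, with Hba-a1 at 0.575 to 35.5 CPM in plasma mice and 0.719 to 36.7 CPM in PBS mice. Lymphocyte genes were too low to be tested, with summed levels of 0.575 to 7.66 CPM in plasma mice and 0 to 2.13 CPM in PBS mice.

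Of 27 genes of blood-borne age factors and their receptors 16 were higher and 11 lower in plasma mice, with a median of 0.06. Timp2, a metalloproteinase inhibitor known as a factor of umbilical cord plasma, had 47.6, 105, 102, 55.4 and 56.1 CPM in plasma mice, against 51.5, 49.7, 41.0 and 53.9 CPM in PBS mice (log2 difference 0.57 ± 0.25, unadjusted p = 0.0297 by edgeR). Plasma mice 4 and 7, the libraries high in Slc17a6 and Tcf7l2, were the only ones that stood above the PBS mice by a wide margin. Clu, the secreted chaperone clusterin, had 698, 752, 735, 767 and 716 CPM in plasma mice, against 620, 655, 658 and 727 CPM in PBS mice. Of the lists not described above, 12 of 18 neuropeptide and growth factor genes were higher (median 0.11), as were 11 of 13 perineuronal net genes (0.08), 6 of 9 immature neuron genes (0.10) and 9 of 15 cell cycle inhibitor and senescence genes (0.04). Stress response genes were 9 higher and 7 lower (0.04), mitochondrially encoded genes 7 higher and 6 lower (0.00), and 2 of the 3 neutrophil, monocyte and border macrophage genes tested were higher (0.38). Over all lists, 25 of 674 members (3.71%) were higher and 7 (1.04%) lower at an unadjusted p under 0.05. Of all 17185 genes tested, 384 (2.23%) were higher and 312 (1.82%) lower. The lists were chosen with earlier results of these data known, so the 2 pairs of shares are set side by side as a description only.

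To set plasma against age, naive mice of 18 months were compared with naive mice of 2 months in the cerebellum. With edgeR, 411 of 17185 genes (2.39%) changed, of which 228 rose and 183 fell with age, with median age changes of 0.78 and -0.34 on the log2 scale. The 228 genes that rose with age had a median plasma change of 0.04: 141 were higher and 87 (38.2%) lower in plasma mice, against 50.6% lower over all genes. The 183 genes that fell with age had a median plasma change of -0.01, with 79 higher and 104 lower. Without plasma mouse 1 these medians were 0.01 and 0.00, the second having turned its sign, as it also did without PBS mouse 5 (0.01). None of the 411 passed the test for plasma. With the age change taken as fixed, the 95% interval of the plasma change excluded an equal and opposite change for 226 of 228 genes that rose and for 180 of 183 that fell. An opposite change 0.5 times as large was excluded for fewer, 179 of 228 and 118 of 183. The genes were chosen by passing the age test, which favours age changes that are estimated too large, so these counts may be too high. The naive mice of 18 months and those of 2 months carry different title numbers, so that age and this number cannot be told apart in the age change.

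Of the followed genes, C4b rose with age by 2.13 and had 0.22 with plasma, and B2m rose with age by 0.92 and had 0.06 with plasma. Gfap had 0.47 with age and 0.07 with plasma, and Gabra6 had -0.31 with age and -0.09 with plasma. Among called genes with at least 5 CPM in the naive mice of 18 months and no clone name, 9 of the 10 most raised with age were higher in plasma mice, with differences from -0.08 to 0.46. The highest of these was Lyz2, a lysozyme of myeloid cells, at 0.46 ± 0.24 (SE). With no such limit, 7 of the 10 most raised with age were higher and 3 lower in plasma mice, from -0.46 (Gm4951) to 0.98 (C3). Among called genes with at least 5 CPM in the naive mice of 2 months and no clone name, 7 of the 10 most reduced with age were lower and 3 higher in plasma mice, from -0.39 to 0.80. With no such limit, 6 were lower and 4 higher, over the same range. The highest was Zfp57, a zinc finger gene of imprinting control, at 0.80 (95% interval 0.13 to 1.47). Its level was low, with a mean of 3.26 CPM over the 9 libraries. The groups overlapped, with 3.06, 3.54, 5.46, 2.05 and 3.36 CPM in plasma mice, against 6.80, 1.02, 2.34 and 1.74 CPM in PBS mice. The value of 6.80 CPM came from the shallow library of PBS mouse 2. Gpr17 fell with age by 1.30 and had a plasma difference of -0.05. By list, 10 of 20 activated microglia genes, 10 of 16 antigen presentation genes and 17 of 31 interferon response genes changed with age. Over all genes the share was 411 of 17185 (2.39%). The medians of these lists with age were 1.29, 1.17 and 1.31, against plasma medians of 0.21, 0.20 and 0.05. Signs differed for several lists. For myelin, 8 of 18 genes changed with age, with a median of -0.28 against a plasma median of 0.03. The myelin plasma median was -0.01 without plasma mice 4 and 7 and -0.09 without plasma mice 4, 7 and 13. Genes of oligodendrocyte precursors and committed cells had medians of -0.22 with age and 0.07 with plasma. Immediate early genes had 0.12 and -0.11.

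**Figure D5:**
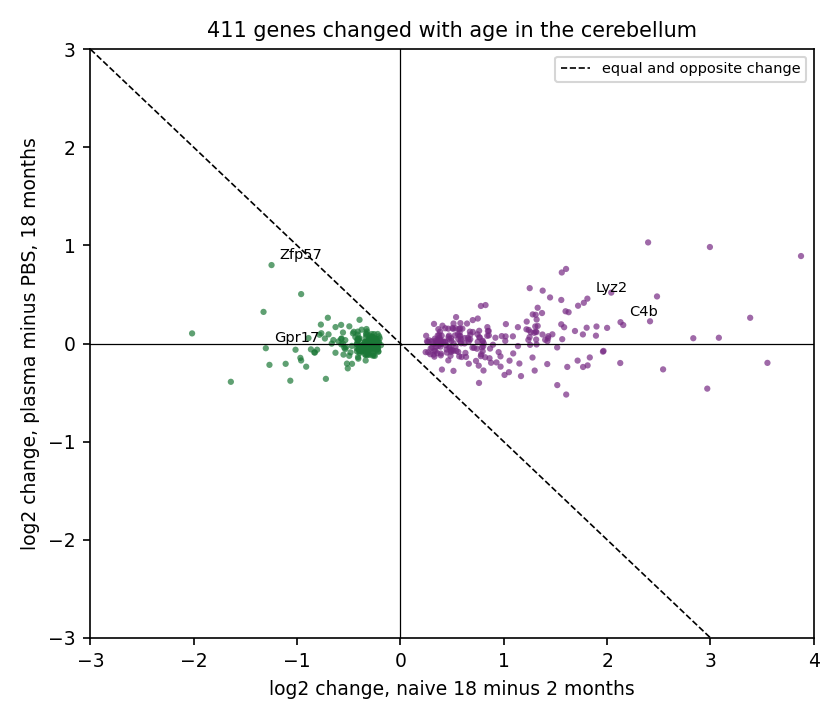
Log2 change with plasma (y axis) against log2 change with age (x axis) for the 411 genes that changed with age (purple higher, green lower with age). Genes with age changes from 4.13 to 6.35, and the gene at -3.29, lie outside the x axis and are not shown. The dashed line marks an equal and opposite change. The points shown lie along the horizontal axis. Zfp57, with a mean of 3.26 CPM over the 9 libraries and groups that overlap, lies nearest to the line among the labelled genes.

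Other plasma comparisons in the cerebellum also called 0 genes, and their difference from the 18-month result was tested directly. At 22 months edgeR called 0 genes for plasma against PBS, with 392 at an unadjusted p under 0.05, and after 24 injections it called 0, with 1147. The plasma difference at 18 months minus that at 22 months was called for 0 of 17185 genes (0%), with 625 at an unadjusted p under 0.05. The difference between 7 injections at 18 months and 24 injections at 19 months was called for 0 genes (0%), with 534. Dbh and Slc6a2 had opposite signs at the ages: at 22 months Dbh averaged 0.23 CPM in plasma mice and 7.81 CPM in PBS mice, and Slc6a2 0.33 and 7.06 CPM. Across the 13035 genes with at least 5 CPM, the log2 changes at 18 months had a Pearson r of 0.33 with those after 24 injections and -0.15 with those at 22 months. Genes are not independent replicates, and genes of 1 comparison share its libraries and their dissection.

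The cortex and hippocampus of the same 9 mice were set against the cerebellum by an interaction of region and treatment over 87 libraries. The plasma difference in cerebellum minus that in cortex was called for 0 of 19490 genes (0%), with 615 at an unadjusted p under 0.05. The difference in cerebellum minus that in hippocampus was called for 0 (0%), with 844. Within each of these regions plasma against PBS also called 0 genes, with 722 at an unadjusted p under 0.05 in the cortex and 916 in the hippocampus. The activated microglia list had a median of 0.21 in cerebellum, 0.06 in cortex and 0.12 in hippocampus, and the granule neuron list one of -0.11 in cerebellum, -0.03 in cortex and -0.04 in hippocampus. The granule neuron list is one of cerebellar cells, so its medians in the other regions say nothing about those cells. In the other cerebellum comparisons of plasma with PBS, the activated microglia median was 0.00 at 22 months and -0.01 after 24 injections, and the granule neuron median 0.08 and -0.13.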

How the data were processed

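Bulk mRNA of mouse cerebellum was analysed as counts per gene symbol. Per the labels' protocols, RNA from RNeasy columns was amplified with Smart-Seq2 and tagged with Nextera XT, without strand, so that overlapping and antisense genes cannot be told apart. Per the submitters' processing notes, reads were processed with Trim Galore 0.3.7, STAR 2.5.3a and DESeq2 on GRCm38; the counting tool and annotation are not given in the sources used here. The deposited values are raw counts with no normalization. PCR duplicates cannot be recognised without molecular identifiers, so errors cover the spread between mice and counting only.

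All 29 cerebellum libraries of 8 groups were fitted together in R 4.3.3 with edgeR 4.0.16 (TMM, filterByExpr with a minimum count of 10 and a minimum total of 15, quasi-likelihood test, 1 coefficient per group), and 87 libraries for interactions with region. Each fit's p values over all its genes were adjusted (Benjamini-Hochberg), with a threshold of 0.05. CPM are counts per 1000000 of a library's total, with no prior count. The standard error was taken from the log2 change and its F statistic. DESeq2 1.42.0, limma 3.58.1 (voom with sample quality weights) and the other settings of the closing section were alternatives. The scripts were tested on simulated counts. Coordinates are those of RefSeq on GRCm38.

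Named genes were, with none past the threshold, the 10 of smallest p per direction with at least 5 CPM and no clone name, 10 followed genes, and the 3 most abundant members of each list described. Members of a list at an unadjusted p under 0.05, and genes marked as chosen after their values were seen, were named beside this rule. The comparison and the 38 gene lists were chosen with earlier results of these data known. Same animal numbers in the labels pair regions of a mouse. The median correlation of same-mouse deviations from group means was 0.0354 between cerebellum and cortex and 0.0266 between cerebellum and hippocampus. No animal number links plasma with PBS mice. A few genes within the rule are not reported here by name, but counts include them.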

Additional observations from a re-analysis of the deposited data

Results flagged for a closer look

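In 138 groups of 4 or 5 libraries tested for a library far from the rest of its group, 14 were marked, and chance marks about 1 in 20 groups. Among single genes, Wdr35 was low in PBS mouse 8 (18.0 CPM), Wdhd1 was high in plasma mouse 13 (16.7 CPM) and in PBS mouse 2 (23.3 CPM), Hba-a1 was high in PBS mouse 11 (36.7 CPM), and Gpr17 was high in PBS mouse 2 (9.71 CPM). In the summed level of a list, plasma mouse 1 was high in glucocorticoid response genes (1742 CPM) and lymphocyte genes (7.66 CPM) and low in perineuronal net genes (922 CPM). Plasma mouse 13 was low in cytoplasmic ribosomal protein genes (5038 CPM) and high in synaptic genes (12774 CPM, against up to 12544 CPM in the other plasma mice). PBS mouse 2, the shallowest library, was high in complement genes (234 CPM). PBS mouse 11 was low in immediate early genes (607 CPM) and high in red cell genes (168 CPM) and brainstem neuron genes (163 CPM). Most of that brainstem sum came from Nefh, Th and Slc6a5, which were present in every library. The cause of these values was not tested.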

How the results depend on the processing

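The count of genes called for plasma against PBS was 0 under all 10 other settings run and with each of the 9 libraries left out in turn, with 451 to 1208 genes at an unadjusted p under 0.05. The count for age was 678 with limma-voom, and 194 to 350 with a naive library left out (194 without mouse 6 and 247 without mouse 9 of 18 months, 243 without mouse 12 of 2 months). The plasma difference between 18 and 22 months was called for 2 genes, Dbh and Slc6a2, with no filter on low counts, and for 0 to 1 genes with a library left out; the 1 gene was Gm973, without plasma mouse 22 of the 22-month group. The cause of these shifts was not tested. With the mouse as a block pairing the regions, 0 genes were called for cerebellum minus cortex (657 at an unadjusted p under 0.05) and 0 for cerebellum minus hippocampus; no other result was fitted with the block. No paired analysis of plasma against PBS was possible because no animal number is common to both groups, and the title number is shared by 3 mice only.

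Medians of genes that rose with age ran from 0.01 to 0.07, and of those that fell from -0.04 to 0.02. Among the 20 genes of smallest p, 0 of 380 values passed the threshold; their direction was largely fixed by their choice. Medians of 24 of 37 lists turned sign in at least 1 setting, among them Purkinje neurons and immediate early genes. Depth limits genes under 5 CPM, and with 5 against 4 mice small changes cannot be told from none.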
